A study of Mus musculus with 12 samples.

Results

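The 7 chemokine receptor genes *Cxcr3*, *Cxcr6*, *Ccr2*, *Ccr9*, *Cxcr4*, *Cxcr5* and *Cx3cr1* were followed in CD8+ T cells sorted as PD-1+CD44+CD8+ from NZB/W F1 mice, a hybrid strain in which lupus nephritis appears with age. The genes were taken by name, and all 7 were listed among the 18992 gene identifiers of the 3 single-cell RNA tables. There were 3 groups, named 12W spleen for mice aged 12 weeks, and 28W spleen and 28W kidney for mice aged 28 weeks, and the labels name no treatment. Each group pools 4 labelled samples with no map from cells to samples, so it is 1 library with no replicate, no test was possible, and the age and organ differences below compare libraries. The age of the 28W spleen rests on the sample titles, since a further label field of those samples reads 12 weeks. Collagenase digestion is described for kidney and not for spleen, so organ and tissue preparation cannot be told apart.

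Chemokine receptors are G protein-coupled receptors that steer leukocytes along gradients of small secreted chemokines. *Cxcr3* binds the interferon-inducible ligands *Cxcl9*, *Cxcl10* and *Cxcl11* and marks effector T cells that enter inflamed tissue. *Cxcr6* binds *Cxcl16* and is a common mark of T cells resident in tissue, and *Ccr2* binds *Ccl2* and its relatives. *Ccr9* binds *Ccl25* and is known for homing to thymus and small intestine. *Cxcr4* and *Cxcr5* read *Cxcl12* and *Cxcl13*, the chemokines of bone marrow niches and of B cell follicles, and *Cx3cr1*, the receptor of *Cx3cl1*, is found on monocytes, macrophages and late effector CD8+ T cells.

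The promoter windows of *Cxcr3*, *Cxcr6* and *Ccr9* are shown because the levels of *Cxcr3* and *Cxcr6* went together over clusters and were highest in kidney, while *Ccr9* was lowest there. Each window is a RefSeq sequence of 300 bases on GRCm38.p6, with 250 bases before the RefSeq start and 50 after it, read on the gene's own strand. The *Ccr9* window lies within the GENCODE span of that gene, which begins farther upstream. Capitals mark TGTGGT, the core letters of the RUNX motif (RUNX factors act throughout the CD8+ lineage), or their reverse complement.
*Cxcr3* (chrX:101734098-101734397, minus strand): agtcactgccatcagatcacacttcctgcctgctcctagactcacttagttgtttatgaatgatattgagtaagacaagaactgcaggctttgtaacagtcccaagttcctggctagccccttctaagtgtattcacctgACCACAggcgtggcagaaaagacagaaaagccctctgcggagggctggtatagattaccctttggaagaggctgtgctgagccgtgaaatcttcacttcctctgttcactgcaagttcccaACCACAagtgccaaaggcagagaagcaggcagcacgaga
*Cxcr6* (chr9:123806227-123806526, plus strand): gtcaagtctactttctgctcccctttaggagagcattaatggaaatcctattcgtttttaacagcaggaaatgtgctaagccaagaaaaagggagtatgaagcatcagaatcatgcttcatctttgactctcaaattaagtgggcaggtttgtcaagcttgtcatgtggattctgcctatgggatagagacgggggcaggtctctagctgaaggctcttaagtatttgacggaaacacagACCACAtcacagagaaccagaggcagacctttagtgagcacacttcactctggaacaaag
*Ccr9* (chr9:123766961-123767260, plus strand): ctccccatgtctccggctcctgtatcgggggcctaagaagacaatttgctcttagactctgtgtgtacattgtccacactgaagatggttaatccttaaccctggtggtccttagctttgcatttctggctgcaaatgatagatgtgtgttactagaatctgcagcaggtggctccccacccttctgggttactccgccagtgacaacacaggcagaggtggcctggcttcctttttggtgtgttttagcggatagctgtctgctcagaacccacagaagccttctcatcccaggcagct

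The letters stood 110 bases before the start and at base 12 after it in *Cxcr3*, 10 bases before the start in *Cxcr6*, and nowhere in the *Ccr9* window. They were also found 54 bases before the start of *Cx3cr1* and not in the windows of *Ccr2* and *Cxcr4*. *Ccr2*, whose window is not shown, was also highest in kidney, so the letters did not go with that level throughout. Of 7 receptors, 6 had a window, so 3 of 6 held the letters, against 16.8% of all 32851 windows. RUNX was 1 of 12 motifs searched on both strands, and the search was made with the receptor levels known. For T-box factors the letters searched were GTGTGA, and also AGGTGTGA, which contains them. For TCF factors they were CTTTGA as well as the shifted form TTTGAT. For KLF factors the search used CACCC together with the longer GGGTGTG, which contains its reverse complement. ETS factors were represented by the letters CCGGAA. The STAT motif was written as TTCNNNGAA, in which N is any base. The SMAD palindrome searched was GTCTAGAC. An E-box was taken as the palindrome CAGCTG. The GATA motif was searched with the letters AGATAA. The T-box letters GTGTGA were found in 14.5% of all windows and once in that of *Cxcr3*, the TCF letters CTTTGA in 16.003% and once in that of *Cxcr6*, and the KLF letters CACCC in 57.5%, among them *Ccr9*, *Cxcr4* and *Cx3cr1*. The E-box letters were found in 16.3% of all windows and once in that of *Cx3cr1*, and the GATA letters in 11.2% and once in that of *Ccr2*. The other letters searched were in none of the 6 receptor windows. A match describes the letters of a window and not a bound site. No protein sequence is shown.

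The libraries held 6894 cells in 10 clusters at 12 weeks, and 6481 spleen cells in 11 clusters and 7135 kidney cells in 12 clusters at 28 weeks, with between 29937384 and 34742303 unique molecular identifiers (UMIs, 1 per captured transcript). A level is given as UMIs per 1000000 UMIs of the library or cluster (CPM), with a 95% exact Poisson interval, and a ratio of levels with an exact conditional binomial interval. These intervals cover counting error only and not the spread between mice. Intervals of clusters are called apart where they do not overlap. A floor of 3 counts stands at 0.0864 to 0.1002 CPM, and the 95% interval of a gene at 0 UMIs reaches 0.106 to 0.123 CPM. The sort markers were present, *Cd8a* at 591, 488 and 738 CPM and *Pdcd1*, which encodes PD-1, at 36.6, 34.7 and 115 CPM from the younger to the older spleen to kidney, and *Cd4* stood at 3.94 CPM or less. Of the 33 clusters, 8 carried markers of B cells, myeloid cells, kidney tubule or red cells at 5 times or more the median cluster of their library, with at least 200 CPM: cluster 3 of 12W spleen, 8 and 10 of 28W spleen, and 2, 7, 8, 11 and 12 of 28W kidney. The summed level of the 6 B cell markers was 61.4, 97.3 and 220 CPM in the same order, that of the 6 myeloid markers 36.4, 56.0 and 378 CPM, and that of the 5 red cell markers 2421, 504 and 323 CPM. Of the 6 tubule markers 1 was detected in each spleen, with at most 0.219 CPM, and 6 in kidney, with 165 CPM. The libraries therefore differ in the other cells they hold, and ratios are given without the 8 clusters where that moves them. Cluster 11 of kidney was marked by red cell genes only. It had 671 CPM of *Cd8a*, 484 CPM of the proliferation marker *Mki67* and 13.7% of the library's UMIs. Clusters 6 and 11 of 28W spleen, with 153 and 307 CPM of *Mki67*, were kept. Ratios by organ without the 8 clusters thus leave out proliferating CD8+ T cells in kidney but not in spleen. Cell barcodes shared between libraries numbered 52 to 66. Clusters were made by the depositing laboratory within each library, so a cluster number does not match across libraries.

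*Cxcr3*, *Cxcr6* and *Ccr2* were all at their highest in 28W kidney. *Cxcr3* was higher at each step, from 12W spleen to 28W spleen to 28W kidney, whereas *Cxcr6* was lower in 28W spleen than in 12W spleen and then about 10.3-fold higher in kidney. *Ccr9* took the opposite course, highest in 12W spleen and lowest in kidney. *Cxcr4* differed little between libraries, and much of the kidney *Cxcr5* and *Cx3cr1* lay in clusters with B cell or myeloid markers. The plot of library levels shows these courses side by side.

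**Figure D1:**
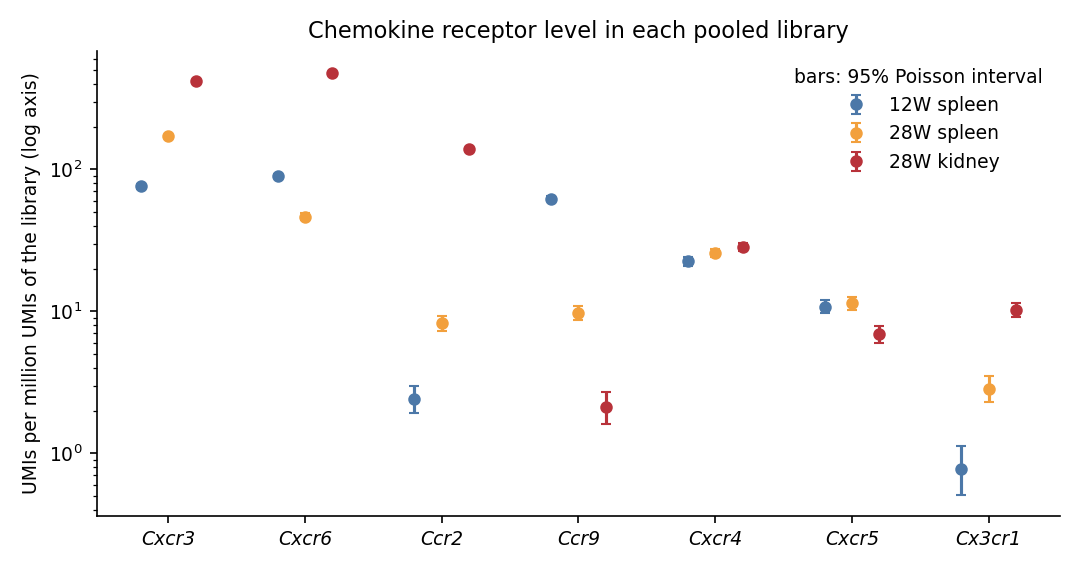
Level of each receptor in the 3 pooled libraries (CPM, log axis), with bars for the 95% exact Poisson interval, which are smaller than the point for the deeper genes. *Ccr9* descends from 62.2 to 2.104 CPM while *Ccr2* ascends from 2.42 to 138 CPM, and the 3 points of *Cxcr4* lie between 22.5 and 28.5 CPM.

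By age, 28W spleen over 12W spleen, 3 of the 7 receptors were at least 2-fold higher (*Cxcr3*, *Ccr2* and *Cx3cr1*), 1 was at least 2-fold lower (*Ccr9*) and 3 differed by less. Of all 12412 genes with at least 20 UMIs in the pair, 1.84% were at least 2-fold higher and 0.935% lower (2.77% in either direction), on the log2 ratio with 1 CPM added to each level. The median log2 ratio was 0.20 over the 7 receptors and -0.08 over all these genes. By organ, 28W kidney over 28W spleen, 4 receptors were at least 2-fold higher (*Cxcr3*, *Cxcr6*, *Ccr2* and *Cx3cr1*), 1 was lower (*Ccr9*) and 2 differed by less, against 8.77% higher and 1.23% lower (10.0% in either direction) of 13189 genes. Without the 8 clusters with other-cell markers 3 receptors were higher and 2 lower by organ, against 2.58% and 2.71% of genes. Over all clusters, the median log2 ratio by organ was 1.30 over the receptors and 0.11 over all genes. Without the 8 clusters the middle value of the receptors was that of *Cx3cr1*, 0.25. All 7 receptors passed the 20-UMI filter in both comparisons, which share the 28W spleen library. A lower level in a library can come from fewer cells of a type or from less RNA per cell, which pooled sums cannot tell apart.

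*Cxcr3*, on chromosome X (GRCm38 positions 101731535 to 101734269, minus strand), was counted at 2640 UMIs or 76.0 CPM (73.1 to 78.9) in 12W spleen. At 28 weeks the level was 171 CPM (166.5 to 176) from 5476 UMIs in the spleen, and 421 CPM (414 to 429) from 12614 UMIs in the kidney. The 3 levels are apart by more than counting error. By age the level was 2.25-fold higher (2.15 to 2.36), and by organ 2.46-fold (2.39 to 2.54), or 1.16 and 1.30 on the log2 scale. Without the 8 clusters that carry other cell types, the organ ratio was 2.97.

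In 12W spleen *Cxcr3* was concentrated in few clusters. Cluster 2 had 302 CPM and cluster 8 had 253 CPM, and the other 8 clusters lay between 28.7 and 59.5 CPM. Cluster 2 held 44.4% of the *Cxcr3* UMIs of that library in 11.2% of all its UMIs, and it was also the cluster with the most *Gzmk*, which encodes a granzyme, at 159 CPM. Cluster 8 was shallow, with 928 UMIs per cell and 8.98% mitochondrial UMIs. Leaving out it and the other shallow clusters moved no receptor across 2-fold in either comparison.

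In 28W spleen the median cluster had 218 CPM of *Cxcr3*, against 52.1 CPM in 12W spleen, while the highest cluster was little different, 317 against 302 CPM. The difference by age thus lay in the middle of the range: 8 of 10 clusters of 12W spleen were below every cluster of 28W spleen by level, but only 3 of these 8 (clusters 1, 7 and 9) had a counting interval apart from all intervals of 28W spleen. The 2 of 11 clusters of 28W spleen above every cluster of 12W spleen were not apart in this way. Clusters 3, 6, 8 and 10 of 28W spleen were low, with 59.9, 72.9, 117 and 66.5 CPM, and among them clusters 8 and 10 carried red cell and neutrophil or B cell and myeloid transcripts. In 28W kidney the 7 clusters without other-cell markers ran from 313 to 651 CPM, and 6 of the 7 were above all 9 such clusters of 28W spleen, 4 of them with intervals apart. The lowest kidney level, 84.9 CPM, was that of the B cell-marked cluster 8.

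*Cxcr6* lies on chromosome 9 (123806475 to 123811760, plus strand). The level in the younger spleen was 89.4 CPM (86.3 to 92.6, 3105 UMIs), that in the older spleen 46.5 CPM (44.2 to 48.9, 1489 UMIs) and that in kidney 478 CPM (470.4 to 486, 14316 UMIs). By age the level was 1.92-fold lower (1.81 to 2.05), just under 2-fold, with a log2 ratio of -0.93, and 98.8% of all genes had a higher log2 ratio or the same. By organ it was 10.3-fold higher (9.75 to 10.9), a log2 ratio of 3.33, and 13.1-fold higher without the clusters with other-cell markers.

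The organ difference of *Cxcr6* covered nearly every cluster. Of 12 kidney clusters, 11 were above the highest cluster of 28W spleen, which had 128 CPM, 9 of them with intervals apart from those of all 28W spleen clusters, and the exception was the B cell-marked cluster 8 at 46.0 CPM. Clusters 1, 3 and 6 of kidney stood apart with 826, 861 and 870 CPM, and the next, cluster 4, had 504 CPM; the ratio of cluster 1 to cluster 4 was 1.64 (1.55 to 1.73). The same 3 clusters had 151, 159 and 229 CPM of *Pdcd1* and 873, 815 and 902 CPM of *Gzmk*. High *Gzmk* was not particular to them, since the red cell-marked cluster 11 had 869 CPM of *Gzmk* with 277 CPM of *Cxcr6*. Cluster 5 was the lowest of the 7 kidney clusters without other-cell markers, with 172 CPM of *Cxcr6*, 69.4 CPM of *Pdcd1* and 610 CPM of *Klf2*, a transcription factor of circulating T cells. In spleen, 8 of 11 clusters at 28 weeks were below every cluster at 12 weeks by level, of which 2 had intervals apart from all at 12 weeks. The lowest 12W cluster was cluster 3, which carries other-cell markers, with 44.4 CPM (36.1 to 54.0). Among the clusters without such markers 6 of 9 were below all 9 at 12 weeks, 4 of them with intervals apart. The highest 28W clusters, 9 and 2, had 128 and 103 CPM, within the 12W range of 44.4 to 151 CPM.

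**Figure D2:**
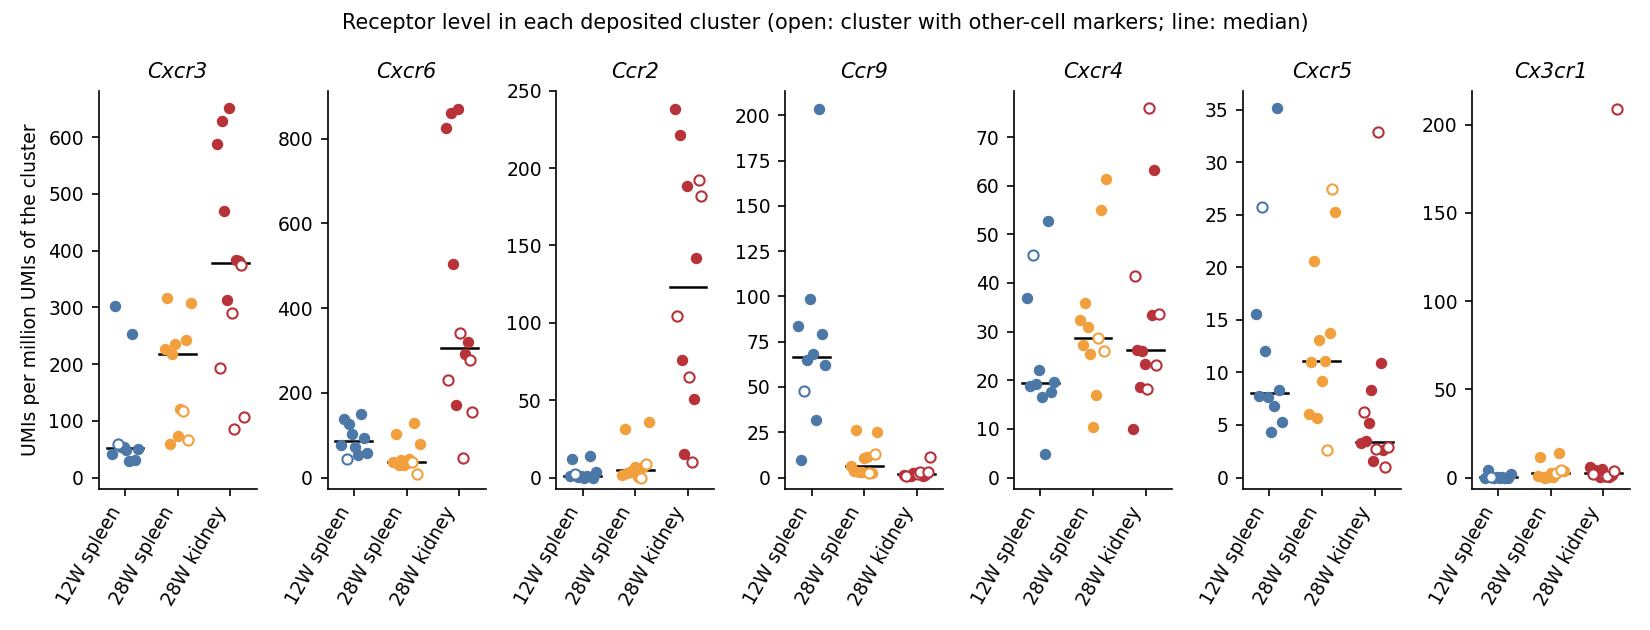
Level of each receptor in every deposited cluster (CPM of the cluster, linear axes that differ between panels), by library, with the median as a line and open points for the 8 clusters with markers of other cell types. All filled kidney points of *Cxcr6* (172 to 870 CPM) lie above all spleen points at 28 weeks, the *Ccr9* points of 12W spleen reach 204 CPM, and 1 open kidney point of *Cx3cr1* stands at 209 CPM.

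*Ccr2* (chromosome 9, 124101950 to 124113557, plus strand) was rare in both spleens and common in kidney. Its level was 2.42 CPM (1.93 to 2.99, 84 UMIs), 8.24 CPM (7.28 to 9.30, 264 UMIs) and 138 CPM (134 to 142, 4135 UMIs) in the 3 libraries in order. By age it was 3.41-fold higher (2.66 to 4.41), and by organ 16.8-fold (14.8 to 19.0), log2 ratios of 1.44 and 3.91. The organ ratio was the largest of the 7 receptors, with or without the clusters with other-cell markers. Spleen *Ccr2* came mainly from 1 cluster in each library: cluster 2 held 54.8% of the UMIs at 12 weeks and 56.4% at 28 weeks, with 11.9 and 31.4 CPM, and cluster 11 of 28W spleen, a shallow cluster with 6.64% mitochondrial UMIs, had 36.1 CPM.

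In kidney *Ccr2* was spread over the clusters, from 10.3 CPM in the B cell-marked cluster 8 to 238 CPM in cluster 1, and 10 of 12 clusters were above every cluster of 28W spleen, 8 of them with intervals apart. The myeloid-marked cluster 12 had 182 CPM (monocytes are known to carry *Ccr2*), against 238 and 221 CPM in clusters 1 and 3. Within the clusters without other-cell markers the range was wide, since clusters 5 and 9 had 15.3 and 50.9 CPM. *Ccr2* has close paralogs, and how reads common to several genes were assigned is not given in the sources used here, so its counts are uncertain to that extent.

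*Ccr9* (chromosome 9, 123678439 to 123784330, plus strand) was highest in the younger spleen, at 62.2 CPM (59.6 to 64.9, 2161 UMIs). The older spleen had 9.74 CPM (8.69 to 10.9, 312 UMIs) and kidney 2.104 CPM (1.62 to 2.69, 63 UMIs). The level was 6.38-fold lower by age (5.67 to 7.21) and 4.63-fold lower again by organ (3.52 to 6.17), log2 ratios of -2.56 and -1.79. Without the clusters with other-cell markers it was 7.63-fold lower by organ.

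At 12 weeks, 9 of 10 spleen clusters had more *Ccr9* than any cluster of 28W spleen, whose highest was cluster 3 at 26.2 CPM, and 7 of the 9 had intervals apart from all of those. The exception was cluster 2, with 9.80 CPM, which was the cluster with the most *Cxcr3*. The shallow cluster 8 had 204 CPM, and clusters 5 and 1 followed with 98.8 and 83.4 CPM. At 28 weeks cluster 3 alone held 40.4% of the *Ccr9* UMIs of spleen, and it was among the clusters with the least *Cxcr3*, 59.9 CPM. High *Ccr9* did not always go with low *Cxcr3*: cluster 8 of 12W spleen had 253 CPM of *Cxcr3*, the second level of that library, and cluster 11 of 28W spleen had 25.3 CPM of *Ccr9* (10.2 to 52.1, 7 UMIs) with 307 CPM of *Cxcr3*. Pearson's r of these 2 receptors over clusters was -0.10, -0.43 and -0.61 in the 3 libraries in order. In kidney the 7 clusters without other-cell markers ran from 0.579 to 2.59 CPM, and the highest level, 11.6 CPM, was that of the myeloid-marked cluster 12.

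**Figure D3:**
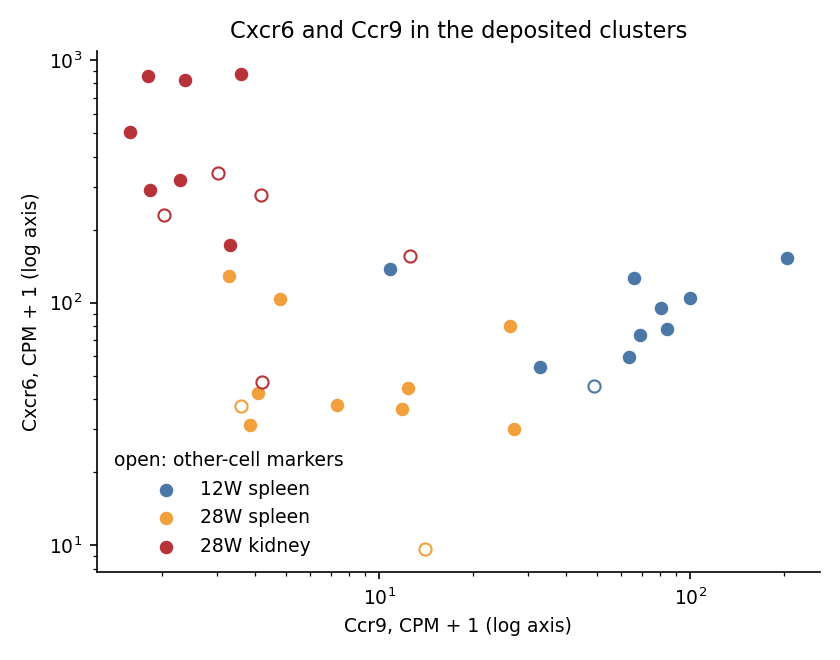
*Cxcr6* against *Ccr9* in the 33 clusters (CPM + 1 on log axes), coloured by library, with open points for clusters with other-cell markers. Kidney clusters fill the upper left, with 172 to 870 CPM of *Cxcr6* and at most 2.59 CPM of *Ccr9* among filled points, and 12W spleen clusters lie to the right; cluster 2 of 12W spleen, at 137 and 9.80 CPM, sits between them.

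*Cxcr4* (chromosome 1, 128588199 to 128592293, minus strand) had nearly the same level in the 3 libraries. It was counted at 22.5 CPM (20.9 to 24.1), 25.9 CPM (24.1 to 27.7) and 28.5 CPM (26.6 to 30.5), from 780, 828 and 853 UMIs. The ratio was 1.15 (1.04 to 1.27) by age. By organ the ratio was 1.10 (1.0003 to 1.21), and its direction was not settled: without the clusters with other-cell markers the kidney level was 22.7 against 25.8 CPM. The B cell-marked cluster 8 of kidney had 76.0 CPM and held 25.0% of the *Cxcr4* UMIs of kidney. Among the clusters without such markers, levels ran from 4.81 CPM (cluster 7 of 12W spleen) to 63.3 CPM (cluster 10 of kidney).

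*Cxcr5* (chromosome 9, 44511787 to 44561877, minus strand) had 10.8 CPM (9.73 to 11.9, 375 UMIs), 11.4 CPM (10.3 to 12.7, 366 UMIs) and 6.88 CPM (5.97 to 7.89, 206 UMIs). The ratio by age was 1.06 (0.914 to 1.23), which does not separate the spleens beyond counting error. In kidney the level was 1.66-fold lower than in 28W spleen (1.40 to 1.98). The B cell-marked cluster 8 alone held 44.7% of the kidney UMIs of *Cxcr5*, a receptor that B cells carry, with 32.8 CPM, 3.03-fold (1.94 to 4.87) above the next cluster. Without the clusters with other-cell markers the kidney level was 4.96 CPM against 11.2 CPM in 28W spleen, a log2 ratio of -1.03. Of the 9 such clusters of 28W spleen, 6 were above all 7 of kidney, 1 of them with its interval apart.

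*Cx3cr1* (chromosome 9, 119901616 to 120069879, minus strand) had few UMIs in spleen, 27 at 12 weeks and 91 at 28 weeks, and 307 in kidney. The levels were 0.777 CPM (0.512 to 1.13), 2.84 CPM (2.29 to 3.49) and 10.3 CPM (9.14 to 11.5). By age the ratio was 3.66 (2.36 to 5.85), and cluster 2 held 59.3% of the UMIs at 12 weeks and 60.4% at 28 weeks, as it held most of *Ccr2*. By organ the ratio was 3.61 (2.85 to 4.61), but the myeloid-marked cluster 12 held 70.7% of the kidney UMIs, with 209 CPM. Outside that cluster kidney had 3.11 CPM (2.504 to 3.83), and without all clusters with other-cell markers the ratio was 1.26 (0.902 to 1.74), so no organ difference was detectable in the rest.

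Within a library, the receptors differed in how far they ranged over clusters. The spread was taken as the log2 ratio of the highest to the lowest cluster after adding 10 CPM, and at least 4-fold spreads were found for 24.4% of genes in the younger spleen, 17.5% in the older spleen and 17.3% in kidney. *Ccr9* had the widest spread of the 7 in 12W spleen, a log2 value of 3.43, and *Cxcr3* had 3.01. Their order rests on the shallow cluster 8, which had 204 CPM of *Ccr9* from 58 UMIs, against 98.8 CPM in the next cluster. In 28W spleen *Cxcr6* had 2.89, *Cxcr3* 2.23 and *Ccr2* 2.21. That order rests on the setting, since without the clusters with other-cell markers *Cxcr6* had 1.82, below *Cxcr3* at 2.23 and *Ccr2* at 2.15, and with 1 CPM added *Ccr2* at 5.21 and *Cx3cr1* at 3.88 were above *Cxcr6* at 3.74. In kidney, *Cx3cr1* had 4.39, which was 0.61 without those clusters, and *Cxcr6*, *Ccr2* and *Cxcr3* had 3.97, 3.61 and 2.80, which were 2.28, 3.30 and 1.03 without them. The receptors were among the genes that made the clusters, so these spreads are a description. Most neighbours in the order of clusters were not separated by the interval of their ratio; of the 11 neighbouring pairs of kidney clusters, 5 were not separated for *Cxcr3* and 10 for *Cxcr4*.

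The levels of some receptors went together over clusters. On log2 levels centred within each library, Pearson's r over the 33 clusters was 0.76 for *Cxcr3* and *Cxcr6*, 0.63 for *Cxcr6* and *Ccr2*, 0.59 for *Cxcr4* and *Cxcr5* and -0.11 for *Cxcr6* and *Ccr9*. Over the 25 clusters without other-cell markers these values were 0.62, 0.76, 0.53 and -0.03. The r of *Cxcr6* and *Cx3cr1* went from 0.01 to 0.74 between the same settings. Within single libraries, *Cxcr3* and *Cxcr6* had an r of 0.66, 0.71 and 0.92, over 10, 11 and 12 clusters. For *Cxcr6* and *Ccr9* it was 0.20, -0.25 and -0.43. Clusters of a library share its preparation and their depth differs, so these values are descriptions.

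Of 5769 genes with at least 20 CPM in some library, those most like each receptor over the 33 clusters were named by r. For *Cxcr3* they were among others *Klrk1* (0.94), which encodes the activating receptor NKG2D, and *Klrc1* (0.89), which encodes NKG2A. For *Ccr2* they were among others *Fgl2* (0.91) and *Arsb* (0.86), and for *Cxcr6* they were *Gm14029* (0.86), *Tapbpl* (0.85) and *Wdr95* (0.85). *Ccr9* was most like *Ms4a4c* (0.80), *Il6st* (0.75) and *Klhdc2* (0.72), *Cxcr4* most like *Klf6* (0.83), *Map3k1* (0.80) and *Fos* (0.80), and *Cxcr5* most like *Sqstm1* (0.78), *Ralgps2* (0.76) and *Fosb* (0.75). *Klrk1* for *Cxcr3* and *Fgl2* for *Ccr2* stayed first without the clusters with other-cell markers and without centring. For *Ccr9*, *Cxcr4* and *Cxcr5*, 0 of the 3 genes stayed among the first 3 without those clusters. *Cxcr3* kept 1 of its 3 without them, and *Cxcr6* kept 1, *Wdr95*, in either setting. *Cx3cr1*, with under 500 UMIs in all, was not ranked.

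Of the 7 receptors, 5 lie on chromosome 9, and *Ccr9*, *Cxcr6* and *Ccr2* lie within 435 kb of each other in a cluster of receptor genes. The end of *Ccr9* and the start of *Cxcr6* are 22.1 kb apart, yet their organ ratios had opposite signs, -1.79 and 3.33 on the log2 scale. *Lztfl1* lies inside the annotated span of *Ccr9* on the opposite strand, and its level was 25.8, 14.3 and 14.5 CPM, a log2 ratio of -0.81 by age and 0.02 by organ. *Cxcr6* lies inside *Fyco1* on the opposite strand, and *Fyco1*, an adaptor of vesicle transport, was at 33.7, 30.9 and 34.3 CPM, with log2 ratios of -0.12 and 0.14. Whether counting used strand is not given in the sources used here, so reads of such pairs could be split either way. The plot of neighbouring genes shows the *Ccr2* end of the cluster higher in kidney, with *Ccr3* and *Ccr2* at log2 ratios of 2.24 and 3.91, and *Ccr1* between them and *Cxcr6* at 0.10.

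**Figure D4:**
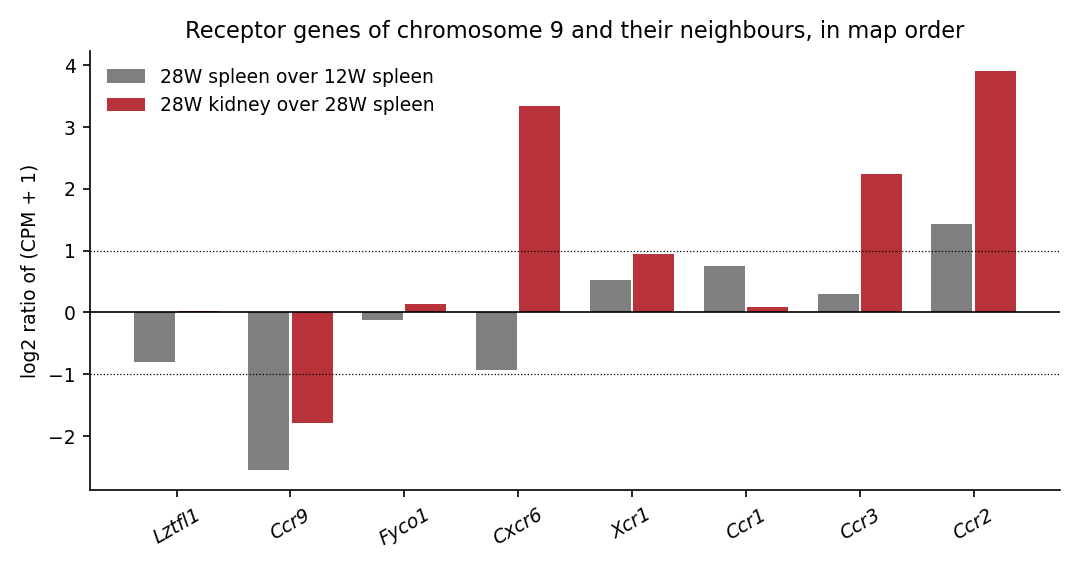
Log2 ratio of (CPM + 1) by age (grey) and by organ (red) for the receptor genes of chromosome 9 and the genes between or overlapping them, in map order, with dotted lines at 2-fold. *Ccr9* is below -1 in both, *Lztfl1* and *Fyco1* stay within 2-fold, and *Cxcr6*, *Ccr3* and *Ccr2* exceed 2-fold by organ; with no replicates the bars carry no error.

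Of 17 other chemokine receptor genes, 9 had at least 20 UMIs in the age pair, 1 of them 2-fold higher, and 11 had them in the organ pair, 6 of them 2-fold higher and 1 lower. Over all genes 1.84% were higher by age, and 8.77% were higher and 1.23% lower by organ, with 2.58% higher and 2.71% lower by organ without the clusters with other-cell markers. With all clusters in, the median log2 ratio over the other receptors that passed was 0.53 by age and 1.02 by organ. Over all genes it was -0.08 and 0.11. *Ccr7*, the receptor for entry into lymph nodes, went from 309 to 181 to 78.2 CPM in the same order of libraries, and the B cell-marked cluster 8 held 55.0% of its kidney UMIs, so that its level outside that cluster was 38.8 CPM.

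*Ccr3* and *Ccr6* were 8.02-fold (5.65 to 11.7) and 4.14-fold (3.23 to 5.34) higher in kidney than in 28W spleen, at 9.02 and 10.6 CPM, and 32.5% of the kidney UMIs of *Ccr6*, known on type 17 lymphocytes, lay in cluster 4, with 29.8 CPM. *Ccrl2*, an atypical receptor, was at 1.38, 3.97 and 13.9 CPM and was at least 2-fold higher in both comparisons. On the log2 ratio with 1 CPM added, *Ccr8* and *Ackr3* passed 2-fold by organ, on 50 and 48 kidney UMIs. Without the clusters with other-cell markers they did not. *Ccr8* then still had 0.972 CPM in kidney against 0.291 CPM in 28W spleen, a ratio of 3.34 (1.44 to 8.39) with nothing added. Cluster 8 held 56.0% of the kidney *Ccr8* and the tubule-marked cluster 7 held 66.7% of the kidney *Ackr3*. *Xcr1*, a receptor of cross-presenting dendritic cells, had 80.0% of its 80 kidney UMIs in the myeloid-marked cluster 12, and *Ccr1* had 51.9% of its 27 there. *Ccr4* and *Ccr10* were at or under 2.47 CPM in every library. *Cxcr1*, *Cxcr2*, *Ackr1*, *Ackr2* and *Ackr4* had at most 7 UMIs in a library, and *Ccr1l1* was listed in none.

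Of 12 ligand genes of the 7 receptors, 6 passed the filter by age and 4 of these were at least 2-fold higher, against 1.84% of all genes, and 10 passed by organ with 5 higher and 0 lower, against 8.77% and 1.23% (2.58% and 2.71% without the clusters with other-cell markers). Without those clusters *Cxcl10* was the only ligand still at least 2-fold higher, with log2 ratios of 1.86 by age and 1.31 by organ. By organ *Cxcl16* then had 0.15 and *Ccl12* 0.14, against 2.26 and 3.55 over all clusters. Several ligands lay mostly in clusters that carried other cells. In kidney the myeloid-marked cluster 12 held 98.5% of the *Ccl12* UMIs, 99.2% of *Ccl2*, 97.4% of *Ccl7* and 80.3% of *Cxcl16*, the ligand of *Cxcr6*, which had 251 CPM in that cluster and 2.21 CPM in the rest. In 28W spleen cluster 10, marked by B and myeloid cells, held 92.2% of *Cxcl9*. *Cxcl10* and *Ccl25* lay less in clusters with other-cell markers. The cluster with most of the *Cxcl10* UMIs held 58.3% in 12W spleen and 37.1% in 28W spleen, in both a cluster without other-cell markers, and 26.8% in kidney, where it was the B cell-marked cluster 8. The level of *Cxcl10* was 2.76, 12.8 and 41.5 CPM in the 3 libraries, 4.63-fold higher by age (3.70 to 5.85) and 3.24-fold higher by organ (2.90 to 3.63), and without the clusters with other-cell markers it was 13.0 and 33.9 CPM in 28W spleen and kidney. *Ccl25*, the ligand of *Ccr9*, stayed between 5.84 and 7.63 CPM, and no cluster held more than 21.9% of its UMIs in a library.

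Of 30 genes that act downstream of chemokine receptors, 29 passed by age, 1 of them at least 2-fold higher and 1 lower, and all 30 passed by organ, 3 higher and 1 lower. These shares stand beside 1.84% and 0.935% of all genes by age and 8.77% and 1.23% by organ. The median log2 ratio was -0.01 and 0.18, close to that of all genes. *Rgs1*, *Rgs2* and *Rgs10* encode regulators of G protein signalling, which shorten receptor signals. *Rgs1* went from 37.6 to 127 to 361 CPM, with 2.84-fold more in kidney than in 28W spleen (2.74 to 2.94). *Rgs10* went down in the same order, 229, 104 and 49.4 CPM. *Rgs2* was at 7.25, 10.1 and 34.8 CPM, and 38.7% of its kidney UMIs were in the B cell-marked cluster 8. *Grk3*, a receptor kinase, had 63 UMIs in kidney, of which 81.0% were in the myeloid-marked cluster 12.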

How the data were processed

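Single-cell 5′ libraries were made from sorted PD-1+CD44+CD8+ T cells, and the labels list 12 samples, 4 in each of 3 groups. Per the labels, the submitters' processing notes name Cell Ranger 2.1.1 and R 3.6.1 with GRCm38; the annotation release, the cell filters and the treatment of doublets are not given in the sources used here. No doublet caller was run, since the tables used hold values by cluster and not by cell. The authors deposited, for each group, the cluster of every cell barcode and a table of mean counts per gene and cluster, scaled by a size factor; its columns of log2 fold changes and adjusted p-values of their own comparisons were not used, nor were the T cell receptor clonotypes. Values in a column were whole multiples of 1 step, and dividing by it gave whole UMIs for 100% of values (within 0.001). A gene missing from a table was taken as 0 UMIs, since every listed gene had at least 1 UMI.

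UMIs were summed over clusters and divided by the library total of 34742303 (12W spleen), 32023473 (28W spleen) or 29937384 (28W kidney). The size factors differ between tables, and this division is what sets the libraries on a common scale. Log2 ratios used a pseudocount of 1 CPM, which understates changes of rare genes, and a gene needed 20 UMIs in the pair; at least 2-fold is a size and not a test. Intervals are exact Poisson, or exact conditional binomial for ratios, at 95%. The scripts were tested on simulated data. Clusters that carry other cell types were marked where the summed CPM of the B cell, myeloid, kidney tubule or erythroid list was at least 5 times the library's median cluster and at least 200 CPM. Likeness was Pearson's r over 33 clusters of log2(CPM + 10), centred within library, for receptors with at least 500 UMIs; T cell receptor and immunoglobulin segments were left out.

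Members and lists were chosen with earlier results of these data known. Named were the 7 receptors, every gene of the other-receptor list, at most the 4 most changed genes at least 2-fold changed of the ligand and signalling lists, the 3 genes most like each receptor, marker genes and chromosome 9 neighbours. *Cxcl9*, *Ccl7*, *Ccl25* and *Klf2* were named after their values were seen. Some genes that these rules name are not reported here. Positions are from GENCODE M21 (GRCm38) and promoters from RefSeq (GRCm38.p6). Python 3.11.15, numpy 2.4.6, pandas 2.3.3, scipy 1.17.1 and matplotlib 3.10.9 were used.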

Additional observations from a re-analysis of the deposited data

How the results depend on the processing

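No paired analysis was possible because each table pools the samples of its group, and for the same reason no replicate could be left out. With a pseudocount of 10 CPM, 1 receptor in place of 3 was at least 2-fold higher by age. *Ccr2* and *Cx3cr1* then had log2 ratios by age of 0.56 and 0.25. By organ 0 in place of 1 was lower (*Ccr9*, -0.71), and *Cx3cr1*, at 0.66, was no longer at least 2-fold higher. That pseudocount shrinks the ratios of rare genes by construction. With a fold of 1.5, 2 receptors were lower by age and 2 by organ, against 3.99% and 4.25% of all genes (5.18% and 17.5% higher). Without the clusters that carry other cell types, 2 were lower by organ (*Ccr9* and *Cxcr5*) and 3 higher. Over all genes, the share at least 2-fold higher by age ranged from 0.596% (10 CPM) to 4.23% (0.1 CPM), against 1.84%, and lower from 0.258% to 2.76%, against 0.935%; by organ it ranged from 1.67% to 14.6% higher, against 8.77%, and from 0.372% (10 CPM) to 2.71% (without those clusters) lower, against 1.23%. The direction by organ turned for *Cxcr4* under 4 alternatives, down to a log2 ratio of -0.18, and by age for *Cxcr5* with deposited means weighted by cells, -0.20; the cause was not tested. *Cxcr3* by age was at 0.93, just under 2-fold, with those means. Leaving out, for each gene, the cluster with most of its UMIs gave *Cxcr6* a log2 ratio by age of -1.13, *Cx3cr1* 0.77 by age and 0.83 by organ, and *Cxcr5* -1.06 by organ. The median gene ratio was -0.10 by age and 0.11 by organ on the log2 scale, and scaling by it moved no receptor across 2-fold. The log2 ratios of *Cxcr3*, *Cxcr6*, *Ccr2*, *Ccr9* and *Cx3cr1* kept their sign under all 9 alternatives run on the ratios, with ranges of 3.11 to 3.68 for *Cxcr6* and 3.02 to 4.51 for *Ccr2* by organ and -2.90 to -1.87 for *Ccr9* by age. For *Cx3cr1* by organ, the interval of the ratio without the clusters that carry other cell types included 1 (0.902 to 1.74). Depth limits *Cx3cr1* in 12W spleen, with 27 UMIs, and *Ccr9* in kidney, with 63.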
